A study of Homo sapiens with 24 samples.

Results

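The genes described here are 10 of the 21386 genes counted in each library: the melanocyte identity genes MITF, SOX10, PMEL, MLANA, TYR and DCT, and SOX9, NGFR, AXL and EGFR, which are associated with dedifferentiated melanoma. They were taken from a written list and matched by Ensembl identifier, and the list sets no threshold on a measured value. RNA was sequenced from 24 libraries of 2 human cancer cell lines, A375 melanoma cells and A549 lung adenocarcinoma cells. Each line was grown as parental cells or as cells carrying a doxycycline (Dox)-inducible short hairpin RNA against MCM7 (shMCM7), a helicase subunit of the DNA pre-replication complex. Both kinds of cells were held at the G1/S border by a double thymidine block and kept for 72 hours with 1 µg/ml Dox or without it (noDox). This gave 4 groups per line with 3 libraries each. The control cells were parental cells that carried no hairpin, so the shMCM7 cells also differed from them by the lentiviral vector and by selection. Selected shMCM7 cells were not described as a single clone. All 24 libraries came from thymidine-blocked cells, so no value below describes freely cycling cells.

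MITF is the master transcription factor of the melanocyte lineage, and SOX10, a neural crest transcription factor, activates it. MITF binds short E-box sequences, among them the M-box, in front of pigment genes such as TYR and DCT. Melanoma cells are known to range from a pigmented state rich in MITF and its targets, through a neural crest-like state marked by NGFR, to undifferentiated states marked by AXL, EGFR and SOX9. A375 carries mutant BRAF.

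The promoters of MITF, DCT and TYR are shown because MITF was well expressed in both lines while DCT and TYR were nearly silent. Gene counts do not tell which MITF start was used in either line. They run from 250 bases before to 50 bases after a RefSeq start site on GRCh38.p14. Capitals mark the M-box core CATGTG or its complement in DCT and TYR, and the cyclic AMP response element TGACGTCA in MITF.
MITF, chr3:69936342-69936641, plus strand: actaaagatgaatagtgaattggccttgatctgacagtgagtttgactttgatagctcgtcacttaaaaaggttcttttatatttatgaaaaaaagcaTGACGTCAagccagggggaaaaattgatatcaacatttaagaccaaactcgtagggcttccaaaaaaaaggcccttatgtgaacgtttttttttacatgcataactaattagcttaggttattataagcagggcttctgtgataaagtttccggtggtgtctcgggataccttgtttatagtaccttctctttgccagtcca
DCT, chr13:94479633-94479932, minus strand: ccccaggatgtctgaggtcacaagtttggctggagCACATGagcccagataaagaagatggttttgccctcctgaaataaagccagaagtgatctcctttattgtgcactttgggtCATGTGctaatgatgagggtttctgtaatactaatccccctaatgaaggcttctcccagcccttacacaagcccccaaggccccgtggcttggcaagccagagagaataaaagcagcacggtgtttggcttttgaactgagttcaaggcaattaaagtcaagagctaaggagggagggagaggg
TYR, chr11:89177625-89177924, plus strand: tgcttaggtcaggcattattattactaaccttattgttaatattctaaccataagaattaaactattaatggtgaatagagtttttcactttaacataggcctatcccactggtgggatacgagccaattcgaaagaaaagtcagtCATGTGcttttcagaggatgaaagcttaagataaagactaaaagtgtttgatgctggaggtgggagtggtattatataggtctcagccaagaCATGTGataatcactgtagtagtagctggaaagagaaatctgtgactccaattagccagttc

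The MITF window lies at the most downstream of its 3 listed starts, the one used by the melanocyte isoform, and its response element began 152 bases before the start. In DCT the core began 215 and 134 bases before the start, and in TYR it began 104 and 12 bases before it. Searched on both strands, CATGTG stood in 4 of the 11 windows of 6 members (MITF, EGFR, MLANA, TYR, DCT and AXL), against 11.1% of all 35116 windows of this length. The E-box CACGTG stood in 0 of the 11 windows and in 7.26% of all. TGACGTCA stood in 1 window and in 1.85% of all, and the AP-1 sequence TGANTCA in 1 window, of EGFR, and in 7.71% of all. In that EGFR window 1 of the 2 AP-1 matches overlapped the M-box core. SOX10, PMEL, SOX9 and NGFR have no entry in the table.

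The hairpin was designed to the sequence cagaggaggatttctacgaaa, shown because it set the groups. It matched MCM7 across an exon junction on the minus strand of chromosome 7 (chr7:100097728-100097745 and chr7:100097834-100097836, GRCh38), within the coding sequence of 3 of 5 matching transcripts. MCM7 measured 77.6, 75.8 and 76.7 CPM (the count of a gene scaled to a common library total) in the A375 shMCM7 Dox libraries and 132, 353 and 359 CPM in the shMCM7 noDox libraries. Parental A375 libraries held 346 to 363 CPM. The shMCM7 noDox replicate 1 thus stood apart from the other 2 of its group, and member calls that change without it are given both ways. In A549 the label did not follow MCM7: it was 88.1 to 97.8 CPM in 3 libraries, labelled shMCM7 Dox replicate 3, shMCM7 noDox replicate 2 and parental noDox replicate 2, and 301 to 341 CPM in the other 9. Totals ran from 146656792 to 283721575 counts in A375 and from 17911338 to 23452823 in A549, so that 3 counts stood for at most 0.0205 CPM in A375 and at most 0.167 CPM in A549.

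The labelled cell types were checked against their markers. SOX10 and S100B, a melanocytic and neural crest marker, were in all 12 A375 libraries (S100B 24.7 to 35.7 CPM) and at 0 in all 12 A549 libraries. Of the 9 melanocytic markers, MLANA and TYR never passed 3 counts in A375. MITF overlapped between the lines, at 26.7 to 44.7 CPM in A375 and 36.2 to 51.1 CPM in A549, and PMEL and TYRP1 overlapped too. The summed CPM of 9 epithelial markers was 5653 to 7752 in A549 and 302 to 490 in A375, with the keratin KRT8 at 1839 to 2733 CPM and 60.0 to 93.4 CPM. CLDN4 went the other way (2.09 to 5.80 CPM in A549, 7.13 to 19.7 in A375) and ESRP1 overlapped. The lung lineage factor NKX2-1 was at most 0.0542 CPM in A549, at or under 3 counts per library, and at 0.220 to 0.410 CPM in A375. Of 11 epithelial and lung markers tested between the lines, 8 were called lower in A375 and 3 higher. Over all 16305 genes tested, 27.6% were called lower in A375 and 33% higher. These were bulk libraries, in which fewer cells expressing a gene and less of its RNA per cell cannot be told apart.

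Levels of different genes can be compared only per length, here as CPM per kilobase of all annotated exons of a gene. In A375 SOX10 was first, with a median of 165 CPM per kilobase over the 12 libraries, followed by AXL (60.0), NGFR (29.9), MITF (4.57), EGFR (3.46), PMEL (0.927), SOX9 (0.559) and DCT (0.0547). The ranges over libraries overlapped between MITF and EGFR and between PMEL and SOX9, and not between the other neighbours among these 8. MLANA and TYR came last, at or under 3 counts everywhere. In A549 the order was AXL (68.6), EGFR (25.4), SOX9 (6.18), MITF (5.67), PMEL (0.300) and NGFR (0.0849), with SOX9 overlapping MITF and PMEL overlapping NGFR.

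In A375, AXL and SOX9 were called higher and PMEL and DCT lower in shMCM7 Dox than in shMCM7 noDox. MITF, SOX10, NGFR and EGFR were not called. Set against the Dox effect in parental cells, AXL and PMEL were called, and SOX9 (0.42, log2) and DCT (-1.15, log2) were not. SOX9 was already higher in shMCM7 than in parental cells without Dox (1.22, log2). A call required a fold change of at least 1.5, p under 0.01 and a false discovery rate (FDR) under 0.05 in the quasi-likelihood test of edgeR. Of the 10 genes, 8 had enough counts to be tested, and 2 were called up and 2 down, where 5.58% of all 16087 genes tested were called up and 6.45% down. The median log2 fold change of the 8 was 0.30, against 0.00448 over all genes tested. MLANA and TYR were filtered out, and the text below gives their counts.

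**Figure D1:**
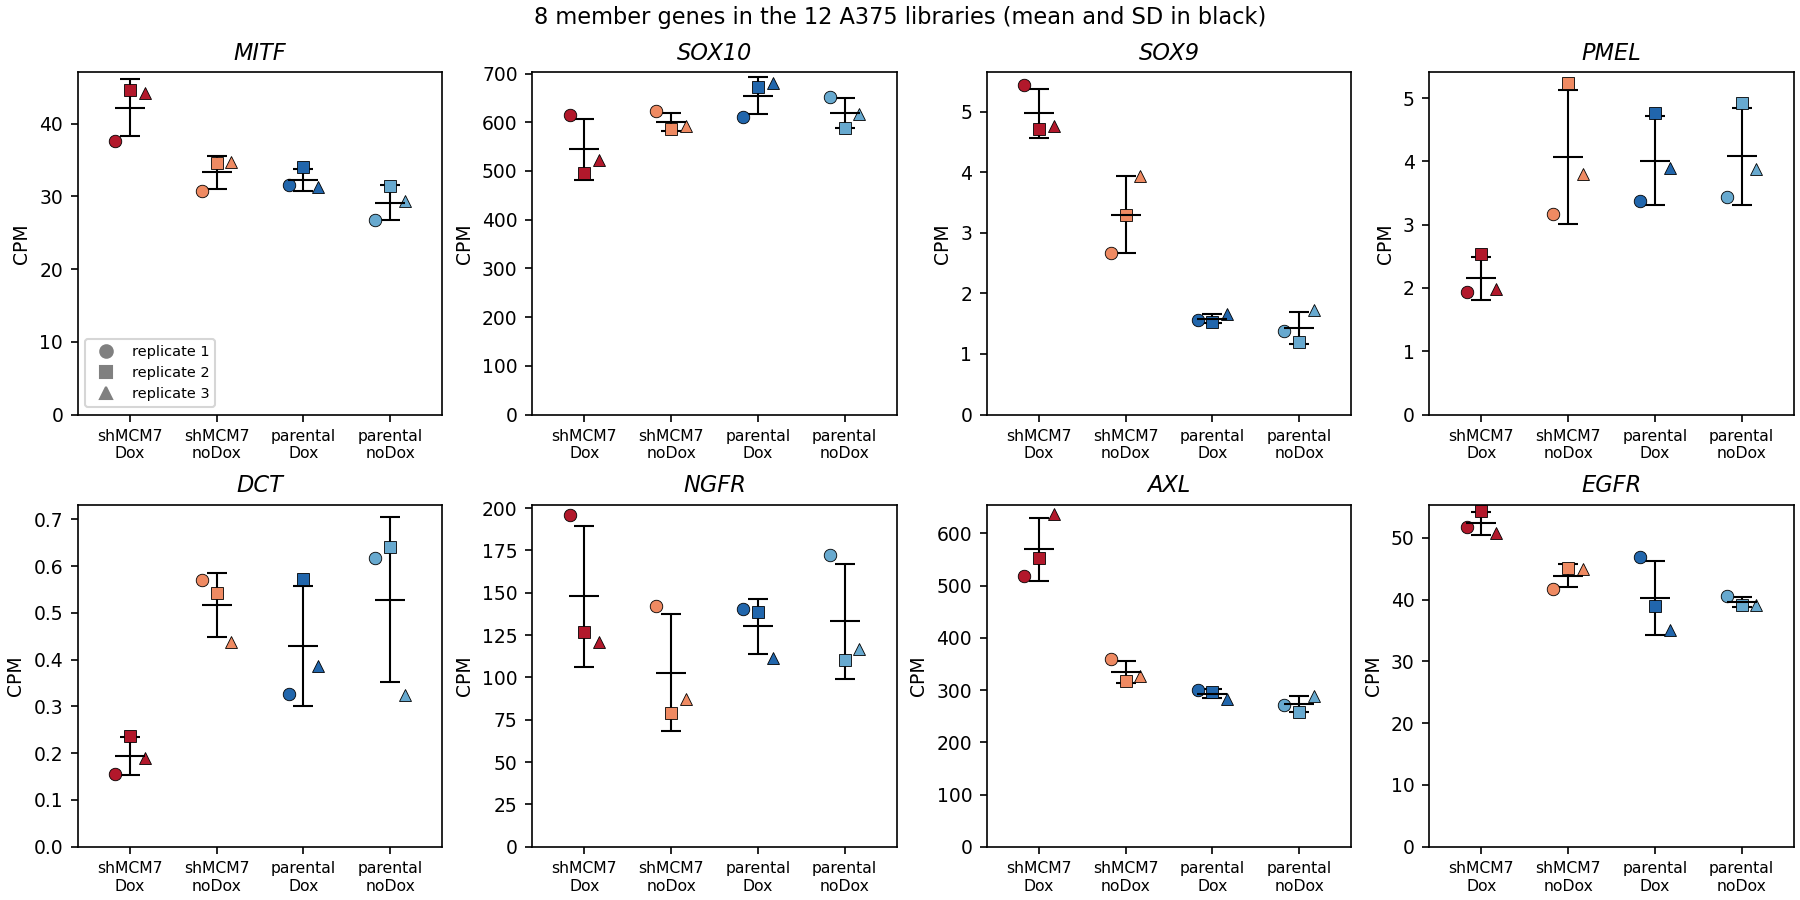
CPM (vertical axes, from 0) of 8 genes in the 4 groups of A375 libraries (horizontal axes), with a point per library, its shape giving the replicate number, and the mean and SD of 3 libraries in black. The shMCM7 Dox libraries were the 3 highest for AXL (519 to 636 CPM) and the 3 lowest for PMEL (1.93 to 2.54 CPM) and DCT (0.155 to 0.236 CPM).

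The lineage transcription factors were measured first. MITF (chr3:69739435-69968337) measured 37.7, 44.7 and 44.2 CPM in the shMCM7 Dox libraries, 30.7, 34.6 and 34.7 in shMCM7 noDox, 31.6, 34.1 and 31.3 in parental Dox and 26.7, 31.4 and 29.3 in parental noDox. The 3 shMCM7 Dox libraries were the highest and did not overlap any other group. The log2 fold change of shMCM7 Dox against noDox was 0.34 ± 0.084 (SE, FDR 0.00930), a ratio of mean CPM of 1.27 that lay under the fold required. At any fold, 6908 of 16087 genes had an FDR under 0.05 in this comparison. The difference of MITF from the Dox effect in parental cells was 0.18 ± 0.11 (log2, SE, FDR 0.267) and was not called. Gene counts do not separate the isoforms of MITF.

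SOX10 (chr22:37970686-37987422) measured 616, 497 and 522 CPM in shMCM7 Dox, 623, 587 and 593 in shMCM7 noDox, 610, 672 and 680 in parental Dox and 651, 588 and 618 in parental noDox. Replicates 2 and 3 of shMCM7 Dox were the 2 lowest libraries, while replicate 1 lay inside the range of the other groups. The log2 fold change of shMCM7 Dox against noDox was -0.14 ± 0.075 (SE, FDR 0.153), and against parental Dox it was -0.27 ± 0.079 (SE, FDR 0.0182), neither of them a call. SOX10 shares 89 exon bases (2.40%) with POLR2F on the opposite strand, which held 106 to 131 CPM in A375, and the strand setting of the counting is not given in the sources used here.

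SOX9 (chr17:72121020-72126420), a transcription factor of neural crest and chondrocyte development, measured 5.44, 4.71 and 4.77 CPM in shMCM7 Dox, 2.67, 3.29 and 3.95 in shMCM7 noDox, 1.57, 1.52 and 1.66 in parental Dox and 1.37, 1.20 and 1.73 in parental noDox. The shMCM7 libraries lay above every parental library with or without Dox, and the shMCM7 Dox libraries above the shMCM7 noDox libraries. The rise with Dox was 0.59 ± 0.14 (log2, SE, FDR 0.00753), just over the fold required. It fell under it without shMCM7 noDox replicate 1 (0.46, FDR 0.0126) and without shMCM7 Dox replicate 1 (0.53, FDR 0.0227).

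The difference in SOX9 was already there without Dox. SOX9 was higher in shMCM7 noDox than in parental noDox by 1.22 ± 0.17 (log2, SE, FDR 0.00424) and was the 1 member called in that comparison, where 1.17% of 16093 genes were called up and 0.478% down. Without shMCM7 noDox replicate 1, the library with low MCM7, the difference was 1.35 (FDR 0.000901). Blocking on replicate number gave SOX9 a difference of 1.21, which stayed called, while the genes called rose from 189 up and 77 down to 335 up and 149 down. Between the Dox groups SOX9 was higher in shMCM7 by 1.64 ± 0.098 (log2, SE, FDR 4.5e-06). The difference between the Dox effects of the 2 kinds of cells was 0.42 ± 0.21 (log2, SE, FDR 0.145) and was not called. The hairpin vector, the selection and the culture history of the shMCM7 cells cannot be told apart in the comparison without Dox.

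Of the pigment genes, only PMEL and DCT were tested. PMEL (chr12:55954105-55973317), which forms the fibrils of the melanosome, measured 1.93, 2.54 and 1.98 CPM in shMCM7 Dox, 3.17, 5.24 and 3.80 in shMCM7 noDox, 3.38, 4.77 and 3.89 in parental Dox and 3.44, 4.93 and 3.88 in parental noDox. The shMCM7 Dox libraries lay under all 9 others, and the other 3 groups overlapped. PMEL fell by 0.92 on the log2 scale with Dox in shMCM7 cells (SE 0.19, FDR 0.00388), a ratio of mean CPM of 0.529. Against parental Dox it was lower by a similar amount (-0.91 ± 0.16, log2, SE, FDR 0.00127). PMEL shares 89 exon bases (2.28%) with CDK2 on the opposite strand, whose level was 189 to 216 CPM in shMCM7 Dox and 209 to 235 CPM in shMCM7 noDox.

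DCT (chr13:94436808-94479682), the dopachrome tautomerase of eumelanin synthesis, was counted 44, 44 and 45 times in shMCM7 Dox, which gave 0.155, 0.236 and 0.191 CPM. It measured 0.569, 0.543 and 0.438 CPM in shMCM7 noDox, 0.327, 0.572 and 0.387 in parental Dox and 0.618, 0.641 and 0.325 in parental noDox. As for PMEL, the shMCM7 Dox libraries lay under all 9 others. DCT fell by 1.43 on the log2 scale with Dox in shMCM7 cells (SE 0.21, FDR 0.000761), to 0.375 of its mean CPM, and the difference from parental Dox was -1.18 (log2, SE 0.26, FDR 0.00518). Both comparisons rest on at most 126 counts per library.

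MLANA (chr9:5890802-5910606), a melanosome protein, was counted 2 times in 1 of 12 A375 libraries and once in 1 of 12 A549 libraries. TYR (chr11:89177452-89295759), the rate-limiting enzyme of melanin synthesis, was counted 2 times in each of 3 A375 libraries and 0 times in A549. Neither gene was detectable above 3 counts at this depth, and no fold change is given. The TYR promoter printed above holds the same CATGTG core as that of DCT.

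Of the 3 receptors, AXL was called with Dox in shMCM7 cells, and NGFR and EGFR were higher in mean without a call. AXL (chr19:41219203-41261766), a receptor tyrosine kinase for GAS6, measured 519, 553 and 636 CPM in shMCM7 Dox, 359, 318 and 327 in shMCM7 noDox, 300, 297 and 283 in parental Dox and 272, 259 and 289 in parental noDox. All 3 shMCM7 Dox libraries lay above the other 9, and shMCM7 noDox also lay above parental noDox without overlap. AXL rose with Dox in shMCM7 cells by 0.77 ± 0.084 (log2, SE, FDR 0.000163), a ratio of mean CPM of 1.70. It was higher than in parental Dox by 0.95 ± 0.081 (log2, SE, FDR 2.74e-05). Without Dox the difference between shMCM7 and parental cells was 0.30 ± 0.060 (log2, SE, FDR 0.0272), under the fold required. Blocking this comparison on replicate number gave 0.30 (FDR 0.000112), also under the fold required.

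EGFR (chr7:55019021-55211628), the epidermal growth factor receptor, measured 51.7, 54.4 and 50.9 CPM in shMCM7 Dox, 41.7, 45.1 and 44.9 in shMCM7 noDox, 46.9, 38.9 and 35.1 in parental Dox and 40.6, 39.2 and 39.1 in parental noDox. The shMCM7 Dox libraries were the 3 highest and overlapped no other group. The log2 fold change with Dox was 0.25 ± 0.057 (SE, FDR 0.00625), and the ratio of mean CPM of 1.19 was under the fold required. The difference of EGFR from the Dox effect in parental cells was 0.21 ± 0.12 (log2, SE, FDR 0.209) and was not called. EGFR shares 1.49% of its exon bases with EGFR-AS1, which was not counted in the files.

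NGFR (chr17:49495293-49515017), the low-affinity neurotrophin receptor, measured 196, 127 and 121 CPM in shMCM7 Dox, 142, 79.0 and 87.5 in shMCM7 noDox, 140, 139 and 111 in parental Dox and 172, 111 and 117 in parental noDox. Replicate 1 was the highest library of each of the 4 groups, and the groups overlapped. The log2 fold change with Dox in shMCM7 cells was 0.52 ± 0.23 (SE, FDR 0.0908). Without shMCM7 noDox replicate 1 it was 0.83 (FDR 0.00670) and passed, so the call depended on 1 library. That fit kept replicate 1 of shMCM7 Dox, the highest of its group, without its counterpart. Blocking on replicate number gave 0.54 (FDR 4.17e-05), under the fold required. The comparison of shMCM7 noDox with parental noDox also depended on shMCM7 noDox replicate 1. It was -0.37 (FDR 0.448) with that library and -0.67 (FDR 0.0489) without it. Blocking on replicate number gave -0.38 (FDR 8.61e-06), under the fold required. NGFR shares 924 exon bases (22.3%) with AC015656.1 on the opposite strand, which held 0.00904 to 0.108 CPM in A375. Another 4.87% is shared with AC006487.1, which was not counted in the files.

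Parental cells were the control for Dox alone. None of the 8 genes was called in parental Dox against noDox, where 0% of 15993 genes were called by edgeR. At an unadjusted p under 0.05 there were 1121 genes, and DESeq2 called 3 genes up. Of the 8 genes MITF had the lowest p, with a log2 fold change of 0.17 ± 0.069 (SE, p 0.0339, FDR 0.666). The other 7 lay between -0.28 (DCT) and 0.17 (SOX9).

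The Dox effects of shMCM7 and parental cells were then set against each other in 1 fit of the 12 A375 libraries, which called AXL up and PMEL down. Here 4.37% of 16334 genes were called up and 6.17% down. AXL rose by 0.65 ± 0.11 more in shMCM7 than in parental cells (log2, SE, FDR 0.000612). PMEL fell by 0.92 more (log2, SE 0.27, FDR 0.0198). DCT had a difference of -1.15 ± 0.39 (log2, SE, p 0.0111, FDR 0.0402) and missed the p required. It was called with the replicate block (-1.17, FDR 0.0119), with DESeq2 (-1.14, FDR 0.0237) and without the filter on low counts (-1.14, FDR 0.0395). NGFR had a difference of 0.54 ± 0.32 (log2, SE, FDR 0.226) and was called without shMCM7 noDox replicate 1 (0.85, FDR 0.0351). With the replicate block NGFR had a difference of 0.51 (FDR 0.0171), under the fold required. The PMEL call was lost in 6 of the 12 fits that left out 1 library, with values from -1.07 to -0.69. DCT was called in 5 of those 12 fits, and AXL in 11, the exception being the fit without shMCM7 Dox replicate 3 (0.56, FDR 0.00110). In the comparison with parental Dox, 7.64% of 16086 genes were called up and 8.39% down, and the members called were again SOX9 and AXL up and PMEL and DCT down. The comparisons of shMCM7 Dox with noDox and with parental Dox share the shMCM7 Dox libraries.

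**Figure D2:**
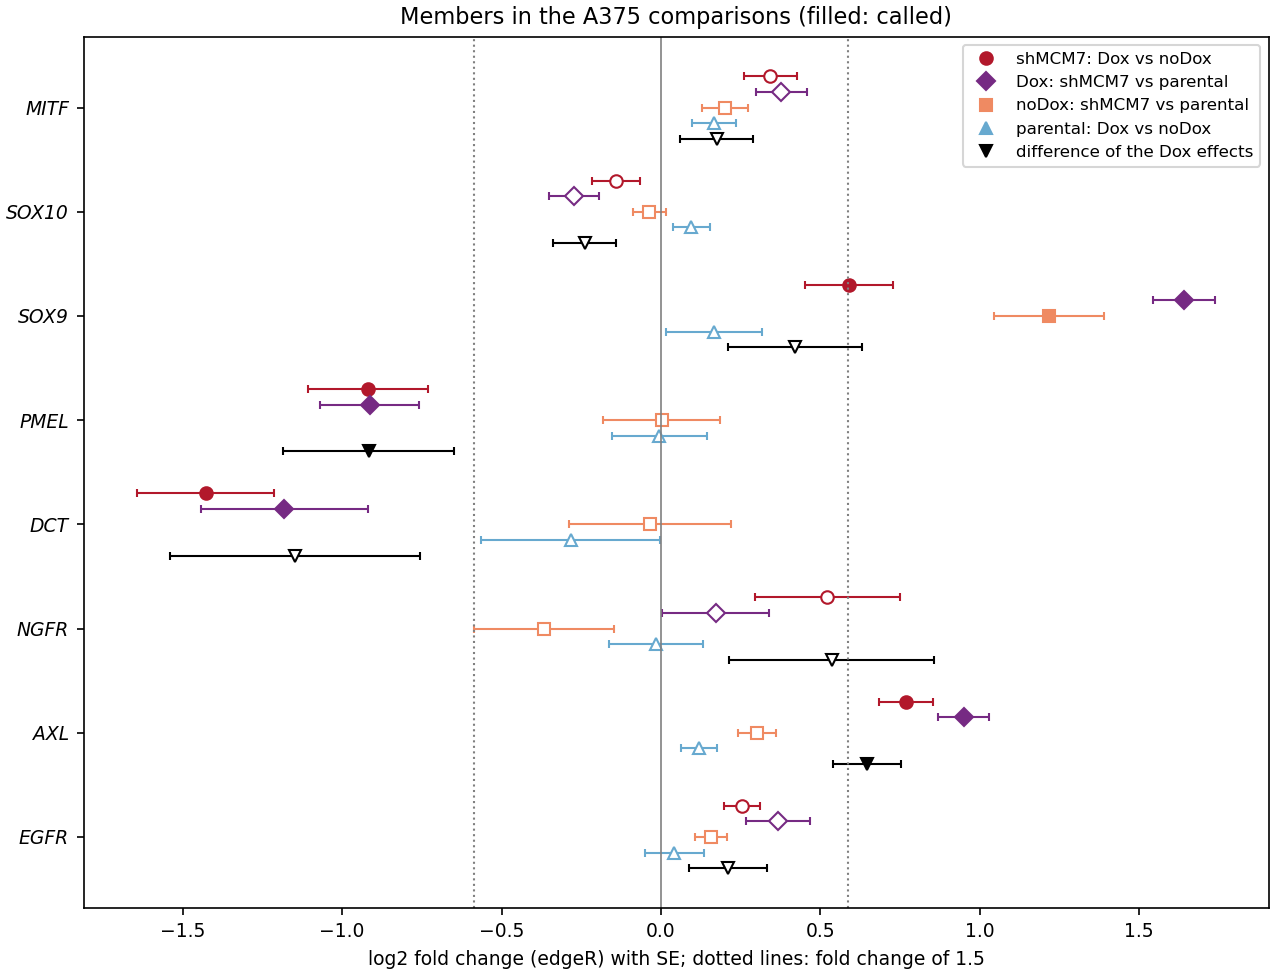
Log2 fold changes (horizontal axis, points with SE bars) of 8 genes (vertical axis) in 5 comparisons of A375 groups, filled where called, with dotted lines at a fold change of 1.5. AXL (0.77 and 0.95) and SOX9 (0.59 and 1.64) were called up and PMEL (-0.92 and -0.91) and DCT (-1.43 and -1.18) called down in both comparisons of shMCM7 Dox libraries, and SOX9 (1.22) was also called without Dox.

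The rest of the pigmentation machinery did not share one direction with Dox in shMCM7 cells. Of 20 pigmentation and melanosome genes, 19 were tested, 1 rose and 2 fell, and the list median was -0.00193 (log2). For these and the next lists, the shares over all genes tested were 5.58% up and 6.45% down. GPNMB, a melanosome glycoprotein, rose by 0.71 (FDR 0.00118), with 178 to 192 CPM in shMCM7 Dox and 97.0 to 138 in shMCM7 noDox. The genes that fell were SLC7A5 (-1.63) and SLC3A2 (-1.15), the 2 chains of a general amino acid transporter. TYRP1, which acts beside DCT in eumelanin synthesis and is named here after its values were seen, went the other way from DCT: 0.434 to 0.730 CPM in shMCM7 Dox and 0.310 to 0.466 in shMCM7 noDox, a log2 fold change of 0.75 (FDR 0.0362) that was not called.

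Of 18 MITF targets outside pigmentation, 0 were called up and 2 down, with a median of -0.037. These were the survival gene BCL2A1, which fell by 1.22 (FDR 0.00328), and the cell cycle inhibitor CDKN1A, which fell by 0.64 (FDR 6.4e-05). CDKN1A answers to many regulators besides MITF.

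Among 24 melanocyte and neural crest transcription factors, 1 was called up and 3 down, with a median of 0.18. ETS1 rose by 0.67 (FDR 0.000133), from 78.8 to 92.4 CPM in shMCM7 noDox to 128 to 138 CPM in shMCM7 Dox. SOX8, of the same SOX group as SOX9 and SOX10, fell by 1.66 (FDR 0.00101) at a low level of 0.465 to 0.744 CPM without Dox and 0.123 to 0.243 CPM with it. TFAP2B (-0.67) and the neural crest factor FOXD3 (-0.62) also fell. FOXD3 was also lower in shMCM7 noDox than in parental noDox (-0.76, FDR 0.00756).

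The melanocyte growth factors and their receptors gave 2 calls up and 1 down among 9 of 13 genes tested, with a median of 0.14. EDN1, an endothelin that acts on melanocytes, rose by 2.53 (FDR 7.0e-05), with 4.25 to 5.16 CPM in shMCM7 Dox and 0.567 to 1.14 in shMCM7 noDox. KIT, the receptor of the melanocyte lineage, rose by 2.06 (FDR 0.00419), but only to 0.0846 to 0.203 CPM from 0.0274 to 0.0436. FGF2 fell by 0.89.

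Of 15 genes of the neural crest-like melanoma state, 14 were tested, 1 rose (SLITRK6, 1.00) and 1 fell (RXRG, -1.16), with a median of -0.13. RXRG, a retinoid receptor used as a marker of that state, measured 1.99 to 3.36 CPM in shMCM7 Dox and 5.16 to 6.89 in shMCM7 noDox.

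Of 19 genes of the undifferentiated melanoma state, 7 were called up and 2 down, where 5.58% of all genes were called up and 6.45% down, with a median of 0.21 against 0.00448 over all genes. CYR61 rose by 1.06, THBS1 by 0.99, JUN by 0.92 and PDGFRB by 0.84, all with FDR of at most 0.00228. CYR61 and THBS1 are matricellular proteins, JUN is an AP-1 subunit and PDGFRB is a receptor of platelet-derived growth factor. PDGFRB measured 20.7 to 28.8 CPM in shMCM7 Dox and 11.7 to 15.9 in shMCM7 noDox. ROR2, a Wnt receptor (-1.83), and the chemokine CXCL8 (-1.18) fell, and both are usually listed with AXL in that state. The list and the 10 genes were chosen with results of these data known, so the count is a description. Without Dox, CYR61 (0.70) and IL6 (2.48) of this list were also higher in shMCM7 than in parental cells.

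The ligands and partners of NGFR, AXL and EGFR gave 1 call up and 2 down among 17 of 19 genes tested, with a median of 0.012. The neurotrophin BDNF, a ligand of NGFR, rose by 0.65 (FDR 0.00118). MERTK, a receptor of the AXL family (-1.17), and ERBB2, a partner of EGFR (-0.59), fell. MERTK held 0.504 to 0.623 CPM in shMCM7 Dox and 1.22 to 1.38 in shMCM7 noDox, opposite to AXL.

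Markers of other cell types were read in the same libraries. Of the 14 epithelial and lung markers, 11 were tested, EPCAM rose by 1.05 and KRT19 and CLDN4 fell, with a median of -0.095. The summed CPM of 9 epithelial markers was 386 to 490 in shMCM7 Dox, 370 to 436 in shMCM7 noDox and 302 to 327 in parental cells. Of 6 fibroblast markers LUM fell by 0.75 and the others were not called, and their summed CPM was 16.3 to 17.8 in shMCM7 Dox, 19.9 to 21.5 in shMCM7 noDox, 19.8 to 40.6 in parental Dox and 20.5 to 21.4 in parental noDox. The part of these differences in the results above was not tested.

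**Figure D3:**
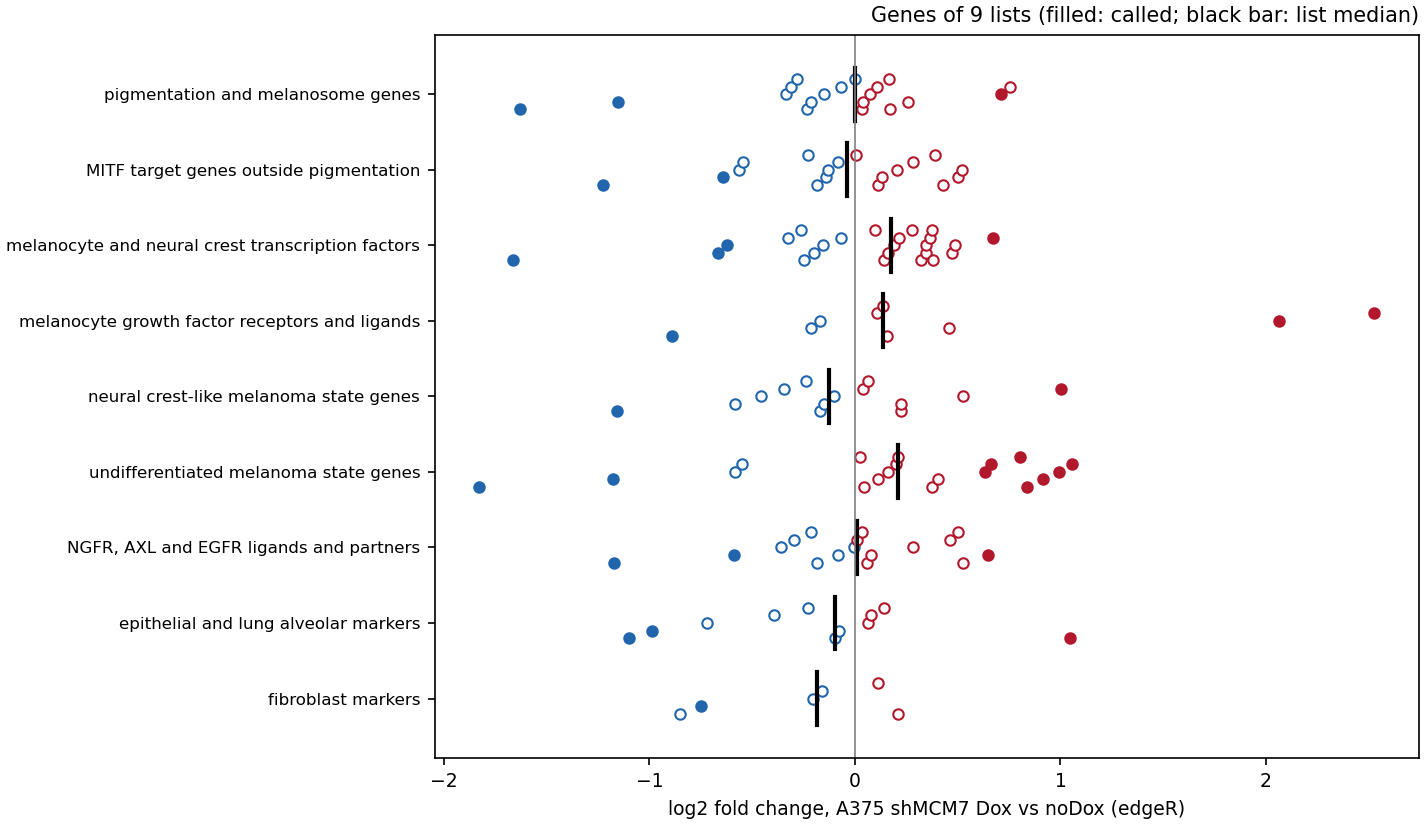
Log2 fold changes of A375 shMCM7 Dox against noDox (horizontal axis) for each tested gene of 9 lists (vertical axis), red for higher and blue for lower, filled where called, with a black bar at the list median. The undifferentiated melanoma state list has 7 filled red points and a median of 0.21, while the pigmentation list has a median of -0.00193.

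Against A549 the 10 genes differed in direction. SOX10, PMEL, DCT and NGFR were called higher in A375 and SOX9 and EGFR lower, 4 up and 2 down of 8 tested, in a comparison where 33% of 16305 genes were called up and 27.6% down. A375 and A549 libraries also differed in depth, and line and sequencing cannot be told apart.

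SOX10 was at 0 counts in all 12 A549 libraries and at 497 to 680 CPM in A375. Its mean over the 12 A375 libraries was at least 3610-fold higher when set against 3 counts in the shallowest A549 library. NGFR measured 79.0, 124 and 196 CPM (lowest, median and highest) in A375 and 0.0997, 0.352 and 0.537 CPM in A549, with no overlap. The log2 difference of NGFR was 8.42 ± 0.19 (SE, FDR 4.67e-20). DCT had 1123 counts over the 12 A375 libraries and 4 over the 12 A549 libraries, a ratio per total of 25.6 with an exact 95% counting interval of 9.99 to 94.3. PMEL was called higher in A375 by 1.59 ± 0.15 (log2, SE, FDR 1.84e-09), but its lowest A375 library (1.93 CPM) lay under the highest A549 library (1.99 CPM). CDK2, which shares exon bases with PMEL on the opposite strand, was also higher in A375 (189 to 237 against 89.9 to 107 CPM). Its part in the PMEL difference was not tested.

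MITF was not a gene of A375 alone. It measured 36.2 to 51.1 CPM in A549 and 26.7 to 44.7 CPM in A375, with a difference of A375 from A549 of -0.37 (log2, SE 0.052, FDR 9.62e-07), under the fold required. SOX9 was lower in A375 (-3.32, log2, SE 0.089, FDR 9.03e-19), with 17.5 to 31.0 CPM in A549 against 1.20 to 5.44 CPM. EGFR was lower in A375 (-3.01, log2, SE 0.069, FDR 5.79e-20), with 295 to 428 CPM in A549. AXL overlapped between the lines, at 259 to 636 CPM in A375 and 297 to 610 CPM in A549, with a difference of -0.25 (FDR 0.0359). Without the 3 A549 libraries low in MCM7 the AXL difference was -0.012 (FDR 0.794), and the 6 calls stayed. With the parental noDox libraries alone, AXL (-0.67, FDR 0.0110) and MITF (-0.74, FDR 0.00115) were called lower in A375. That set still holds A549 parental noDox replicate 2, which is among the A549 libraries low in MCM7. AXL stood at 530 CPM in that library and at 320 and 370 CPM in replicates 1 and 3.

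The listed genes were called in both directions between the lines. The factors SOX5 (135 to 193 CPM in A375), TFAP2B (22.8 to 67.6) and PAX3 (13.0 to 18.2), and the endothelin receptor EDNRB (16.3 to 20.2), were at 0 counts in all 12 A549 libraries. Of 14 neural crest-like state genes tested 12 were called higher in A375 and 1 lower, and of 24 transcription factors 15 were higher and 4 lower. Of 18 pigmentation genes 7 were called higher and 4 lower, and of 10 melanocyte growth factors and receptors 2 were higher and 7 lower, where 33% of all genes were higher and 27.6% lower. In the other direction, NTRK3 (69.2 to 143 CPM) and EREG (87.9 to 180 CPM) in A549 stood against at most 0.215 and 0.472 CPM in A375.

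**Figure D4:**
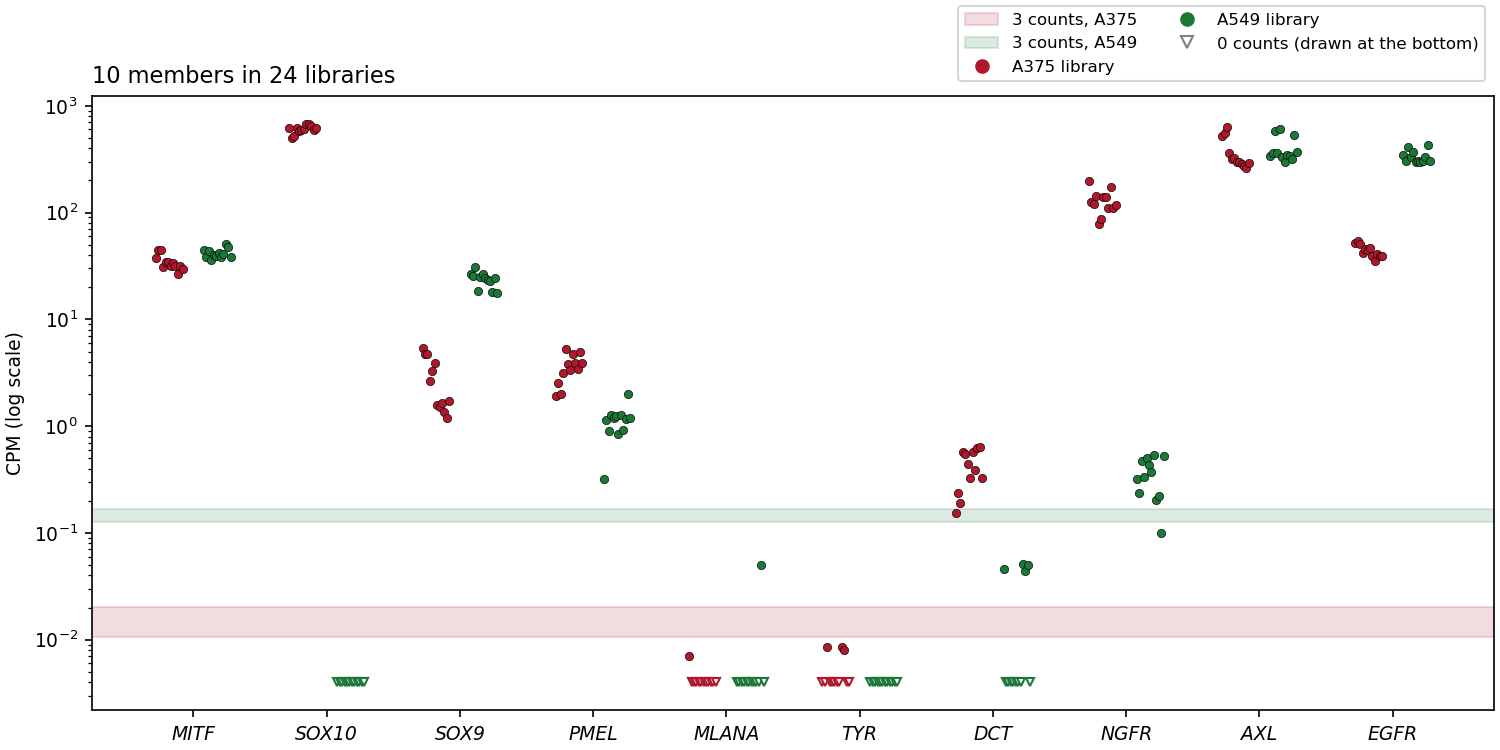
CPM (vertical axis, log scale) of the 10 genes (horizontal axis) in each of 12 A375 and 12 A549 libraries, with bands at 3 counts and open triangles at the bottom for 0 counts. SOX10 is at 497 to 680 CPM in A375 and at 0 counts in every A549 library, while MITF and AXL overlap between the lines.

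Within A549 the comparison by label found no call. Only MITF, PMEL, SOX9, AXL and EGFR were tested there, and 0% of 13550 genes were called in shMCM7 Dox against noDox by edgeR. At an unadjusted p under 0.05 there were 61 genes, and DESeq2 called 0 up and 0 down. The MCM7 difference itself was -0.028 (log2, SE 0.56, FDR 1.00), so the labels do not give a knock-down to read in these libraries. Without the 2 libraries low in MCM7 the count of calls was again 0.

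AXL in A549 measured 340, 364 and 578 CPM in shMCM7 Dox, 361, 610 and 331 in shMCM7 noDox, 297, 346 and 336 in parental Dox and 320, 530 and 370 in parental noDox. The 3 libraries at 530 to 610 CPM were the same 3 in which MCM7 was low, and the other 9 lay between 297 and 370 CPM. EGFR was also highest there, at 367 to 428 CPM against 295 to 346 CPM. MITF showed no such order, with 40.4 to 47.2 CPM in those 3 libraries and 36.2 to 51.1 CPM in the other 9. SOX9 (24.3 to 31.0 against 17.5 to 26.8 CPM) and PMEL (0.895 to 1.99 against 0.321 to 1.28 CPM) also overlapped. These are values per library, with no test, because the labels do not define that split.

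**Figure D5:**
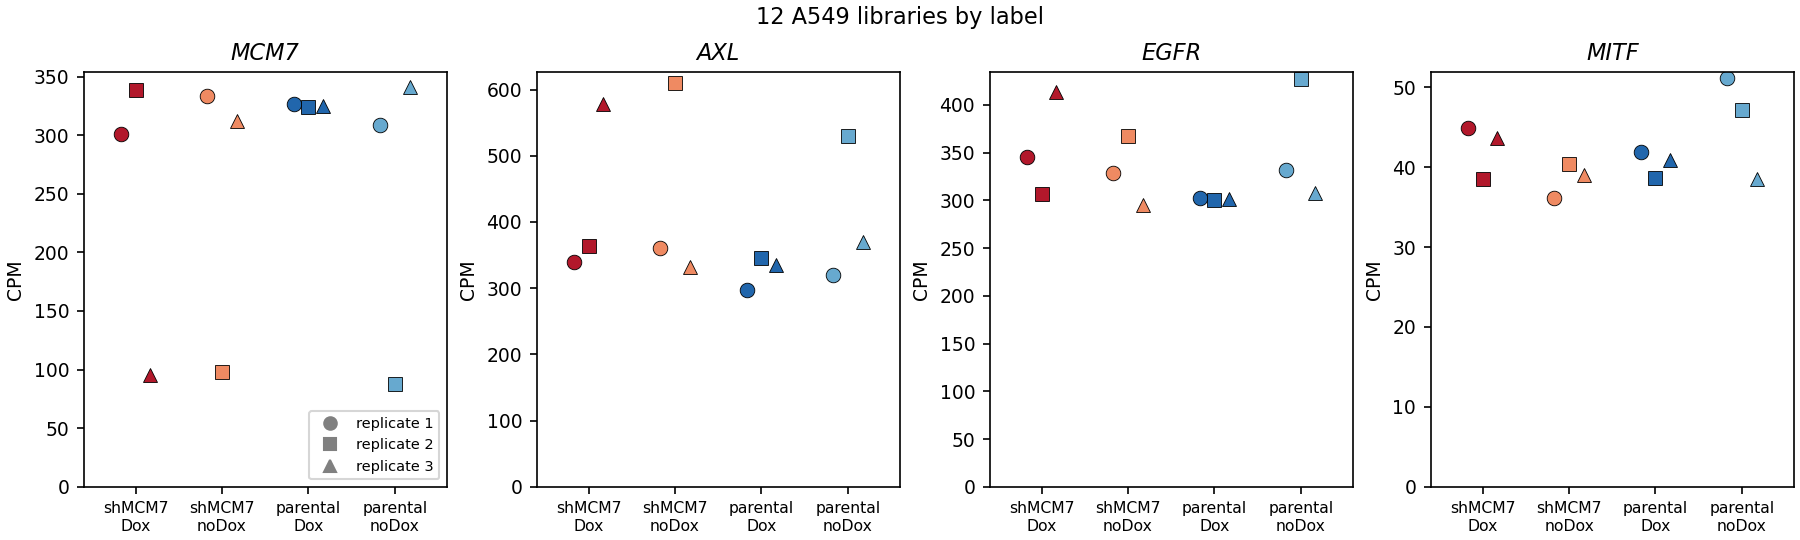
CPM (vertical axes, from 0) of MCM7, AXL, EGFR and MITF in the 12 A549 libraries by their labels (horizontal axes), with a point per library, its shape giving the replicate number. One library each of shMCM7 Dox, shMCM7 noDox and parental noDox is low in MCM7 (88.1 to 97.8 CPM) and high in AXL (530 to 610 CPM).

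The genes whose log2 CPM followed a member most closely over the 12 A375 libraries were sought among 13161 genes with a mean of at least 1 CPM. For AXL these were CMIP (Pearson r 0.996), AOX1 (0.985) and PODXL (0.984), and for EGFR they were TNFRSF10A (0.970), MYO5B (0.970) and RAD23B (0.946). For MITF they included KLHDC7A (0.958) and DDAH1 (0.954), and for SOX10 they were PRICKLE3 (0.960), GTF2F1 (0.959) and MLLT1 (0.957). The 12 libraries share 4 groups, and these values describe likeness over them only.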

How the data were processed

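Per the submitters' processing notes, reads were handled with bcl2fastq 2.19 and Trimmomatic, aligned with STAR 2.7.1 to GRCh38.p10 and counted per Ensembl gene with featureCounts, and edgeR was named. The deposited values are the authors' raw counts per gene, 1 table per library. The strand setting and annotation release are not given in the sources used here. Gene names, exon lengths and coordinates came from GENCODE 29 (21349 of 21386 identifiers matched) and promoter sequences from RefSeq. CPM used plain library totals. Tests used edgeR 4.0.16 (quasi-likelihood, TMM factors, filterByExpr, prior count 0.125) in R 4.3.3, fitted on all genes of the groups compared, with Benjamini-Hochberg FDR. SE is the absolute log2 fold change over the square root of F. DESeq2 1.42.0 was an alternative. Likeness used log2(CPM + 0.1).

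The 10 genes and the 9 lists were chosen with earlier results of these data known. A few other genes are not reported here and were left out of the lists and their counts after the values were seen, for reasons unrelated to them. Named from each list were its called genes of shMCM7 Dox against noDox in A375, up to 4 per direction, and from A375 against A549 up to 3 per direction. The listed genes given against A549 are a selection from these. The 3 replicates per group were described as biological. All main fits used the group only, and replicate number entered only in the replicate block. Same-numbered libraries were judged as paired where the correlation of their deviations was over 0.1 in every pair. This held for A375 shMCM7 noDox against parental noDox (r = 0.318, 0.212 and 0.341), whose main values are nevertheless from the unpaired fit. For shMCM7 Dox against noDox the correlation was 0.256, 0.0881 and 0.235. No 2 libraries held identical counts. Intervals and limits of 3 counts cover counting error only.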

Additional observations from a re-analysis of the deposited data

Results flagged for a closer look

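For 2 of the 8 genes tested, Dox acted differently in shMCM7 than in parental cells of A375 by the interaction test, 1 up and 1 down. Over all 16334 genes tested, 4.37% were called up and 6.17% down. The difference (log2, shMCM7 minus parental) was 0.65 for AXL and -0.92 for PMEL, with the limits given above. DCT (-1.15) was not called but was with the replicate block (-1.17). NGFR (0.54) was not called with the block (0.51) but was without shMCM7 noDox replicate 1 (0.85). Among the named genes of the lists that were called in this test, the difference was positive for EDN1 (2.17), SLITRK6 (1.05), JUN (0.96), CYR61 (0.93), THBS1 (0.93), EPCAM (0.91), PDGFRB (0.72), BDNF (0.70), ETS1 (0.68) and GPNMB (0.63). It was negative for ROR2 (-1.96), SLC7A5 (-1.81), SOX8 (-1.68), RXRG (-1.28), BCL2A1 (-1.26), SLC3A2 (-1.21), MERTK (-1.14), CLDN4 (-1.08), FGF2 (-0.95), CXCL8 (-0.82), CDKN1A (-0.72), LUM (-0.67) and ERBB2 (-0.66). KIT, TFAP2B, FOXD3 and KRT19, named above for shMCM7 Dox against noDox, were not called in this test. Groups of 3 libraries were too small for a test of single outlying libraries.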

How the results depend on the processing

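Each result was recomputed with DESeq2 size factors, the DESeq2 Wald test, no filter, a minimum of 10 counts per library, a prior count raised to 2, a replicate block and without each library, and the comparisons of 2 groups within a line also with the dispersion of all 12 libraries. Of 889 recomputed member values, 867 kept their direction or, where not called, their lack of a call, 9 lost a call, 13 gained one and 0 called values changed sign. The 2 libraries low in MCM7 were left out of the A549 comparison after seeing the data.

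In shMCM7 Dox against noDox in A375 the members called up numbered 1 to 2 without each library. In parental Dox against noDox, DESeq2 called 3 genes up, the replicate block 12, and the fits without 1 library 0 to 1. For the difference of the Dox effects, members called down numbered 2 with DESeq2, 2 without the filter and 2 with the block, where DCT was added, and 0 to 2 without each library, as did members called up (0 to 2). For shMCM7 noDox against parental noDox, the replicate block, with the pairing given above, called 335 genes up and 149 down. Without each library 39 to 66 were called down, the lowest counts coming without parental noDox replicate 2 (39), parental noDox replicate 3 (40) and shMCM7 noDox replicate 2 (50), and 0 to 1 members. The block changed no other call of a member. For A375 against A549, requiring 10 counts in every library called 3346 genes up and 0 members, since SOX10, PMEL, DCT and NGFR were then not tested. With parental noDox libraries alone, 4 members were called down, MITF (-0.74) and AXL (-0.67) being added. That set holds A549 parental noDox replicate 2, which was low in MCM7 and high in AXL. The cause was not tested. The low-count members DCT, MLANA and TYR are limited by depth.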
